A study of Mus musculus with 3 samples.

Results

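The genes described here are 10 that mark the 2 main cell classes of the renal collecting duct, of 19938 genes measured. Principal cells are represented by Aqp2, Aqp3, Avpr2, Scnn1b, Scnn1g, Hsd11b2 and Fxyd4, and intercalated cells by Atp6v1g3, Slc26a4 and Foxi1. A gene was read from the probe set that the platform annotation ties to its symbol alone, and each of the 10 had 1 such probe set. The samples were 3 preparations of renal corpuscle, in which a tuft of capillaries inside a capsule filters the blood. They came from adult wild-type CD-1 male mice, an outbred stock, 7 to 9 weeks old, with approximately 2 kidneys pooled for each, and no agent was given and no cell was sorted. Corpuscles were freed with Collagenase A (0.5%, 15 minutes at 37 °C) and collected with sieves of 100, 70 and 40 µm, so any tubule fragment that came through the sieves was part of the sample. All 3 samples form 1 group, and the data describe whether collecting duct transcripts were measurable in this preparation and how far the arrays differed.

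The collecting duct is the last segment of the renal tubule and lies apart from the corpuscle. Principal cells take up water through aquaporins under vasopressin, and sodium through the epithelial sodium channel under aldosterone. Intercalated cells secrete acid or bicarbonate with a proton pump, the V-type ATPase, and anion exchangers, and their identity in the mouse depends on the transcription factor Foxi1.

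Values are log2 array signals. Background was set on each array by 1205 probe sets of odorant and vomeronasal receptor genes, which are chiefly genes of the nose, and was their 95th percentile. It lay at 6.90, 6.96 and 6.92 on replicates 1, 2 and 3 (120, 124 and 121 as linear signals). A gene was called detected when its signal exceeded background in a one-sided limma test with an adjusted p under 0.05 over all 19938 genes. By this rule 11712 genes (58.7%) were detected, and 59.0% lay above background on each of the 3 arrays. The rule also called 52 of 1190 receptor genes (4.37%) detected. The labelled tissue was checked against its defining markers, and the analysed genes of podocytes (6 of 6), glomerular endothelium (6 of 6) and mesangial cells (5 of 5) were detected, at medians of 4.41, 4.07 and 4.41 log2 above background. In such unsorted samples fewer cells of a type and less RNA per cell cannot be told apart. Each probe set has its own affinity, so a gene was called against background and not against another gene's level. Rankings, medians, summed signals and the isoform comparison below set genes side by side, and differences in affinity limit them.

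Of the 10 collecting duct genes 6 were detected (60.0%), a share close to the 58.7% of all genes. Their median was 0.36 log2 above background, against 0.37 for all genes. Of the 7 principal cell genes 5 were detected, with a median of 0.41, and of the 3 intercalated cell genes 1 was, with a median of -0.14. The 6 detected genes lay above background on all 3 arrays, and the other 4 lay below it on all 3. By their 3-array means, the 6 detected genes stood 0.31 to 0.99 above background.

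**Figure D1:**
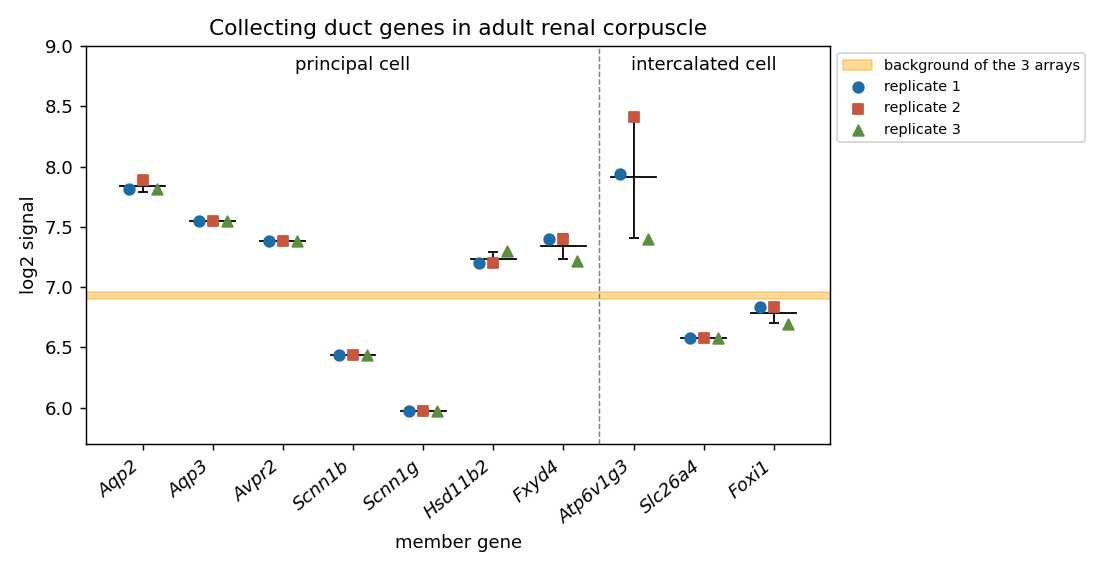
Log2 signal (vertical axis) of the 7 principal and 3 intercalated cell genes on each of 3 arrays, with the mean (line), the SD (bars) and the range of the 3 background levels (band). Scnn1b, Scnn1g, Slc26a4 and Foxi1 lie under the band on every array, and Atp6v1g3 has the widest spread, 7.40 to 8.41.

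Aqp2 encodes the apical water channel that vasopressin moves to the surface of principal cells. Its signals were 7.81, 7.89 and 7.81 on replicates 1, 2 and 3. All 3 were above background and close to one another, at 0.91 ± 0.03 log2 above it (standard error of the fit). Only 5, 6 and 6 of the 1205 receptor probe sets were higher on those arrays. The mean corresponds to a linear signal of 228. The Aqp2 promoter is shown because Aqp2 lay furthest above background of the principal cell genes. It runs from 250 bases before to 50 after the transcript start (RefSeq, GRCm38.p6, chr15:99578806-99579105, plus strand), and capitals mark, in order, the cAMP response element core TGACG, the GATA motif AGATAA and the short steroid receptor motif TGTTCT, each matched on the opposite strand.
Aqp2: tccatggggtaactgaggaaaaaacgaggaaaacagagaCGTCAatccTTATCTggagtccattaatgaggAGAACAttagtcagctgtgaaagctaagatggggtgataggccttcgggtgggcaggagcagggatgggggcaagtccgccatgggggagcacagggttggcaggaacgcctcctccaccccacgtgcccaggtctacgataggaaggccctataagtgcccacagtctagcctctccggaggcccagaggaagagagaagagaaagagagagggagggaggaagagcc
These matches began 211, 202 and 179 bases upstream of the start. Over all 32851 RefSeq promoters of the same length, 20.8% held TGACG, 11.2% AGATAA and 19% TGTTCT on either strand. Such short matches are common and describe letters only, not sites in use.

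Aqp3, the water and glycerol channel of the basolateral membrane, gave 7.55 on each array. It lay 0.62 ± 0.03 log2 above background, with 11, 16 and 14 receptor probe sets higher. Avpr2, the V2 vasopressin receptor that raises cAMP in these cells, gave exactly 7.38 on each array, or 0.46 ± 0.03 above background. For this gene 18, 20 and 18 receptor probe sets were higher. The genes for both water channels and for the receptor were thus detected, each by less than 1 log2. A repeated value such as that of Avpr2 is common here, since 42.4% of probe sets held 1 value on all 3 arrays to every decimal, and an SD of 0 is not an error of 0.

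Scnn1b and Scnn1g encode the beta and gamma subunits of the epithelial sodium channel and neighbour each other in the genome. Scnn1b gave 6.44 on each array, -0.49 relative to background, and 160, 170 and 169 receptor probe sets were higher. Scnn1g gave 5.97 on each array, -0.96 relative to background, with 329, 340 and 335 receptor probe sets higher. Both lay under the 95th percentile of the receptors on every array and were not detected. The gene of the alpha subunit, Scnn1a, gave 6.21, 6.27 and 5.99 and was undetected as well. Thus 0 of 3 channel genes were detected, beside 58.7% of all genes.

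Hsd11b2 encodes the enzyme that inactivates glucocorticoids and so keeps the mineralocorticoid receptor for aldosterone. It gave 7.20, 7.20 and 7.30, with the highest value on replicate 3, and lay 0.31 ± 0.03 log2 above background. On replicates 1, 2 and 3, 29, 30 and 21 receptor probe sets were higher. Fxyd4, a small regulator of the sodium pump, gave 7.40, 7.40 and 7.22, with the lowest value on replicate 3. Fxyd4 lay 0.41 ± 0.03 above background, with 18, 20 and 27 receptor probe sets higher. Its SD of 0.11 (n = 3) was the widest of the principal cell genes. Hsd11b2 had the largest adjusted p of the 6 detected genes, 1.49e-15 (limma).

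Atp6v1g3 encodes the G3 subunit of the proton pump, an isoform of intercalated cells. Its signals were 7.94, 8.41 and 7.40 on replicates 1, 2 and 3, and it averaged 7.92 ± 0.51 log2 (SD, n = 3). All 3 arrays were above background, but they stood apart from one another, with replicate 2 highest and replicate 3 lowest. On replicate 3 the signal was 2.01-fold below that of replicate 2, and 18 receptor probe sets were higher there, against 5 on each of the other arrays. The mean was 0.99 ± 0.06 above background. Of all genes 0.301% had arrays more than 1 log2 apart, and Atp6v1g3 was the only one of the 10 that did. Among detected genes, 51 (0.435%) had an SD as large. In this test a gene's standard error is drawn toward that of genes of similar level, and its own spread enters only in part. Aqp2, with a mean of 7.84 and an SD of 0.04, had a standard error of 0.032. Atp6v1g3, with a mean of 7.92 and an SD of 0.51, had 0.060. A call is therefore close to a threshold just over background, and an adjusted p here may be smaller than it should be.

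Slc26a4 encodes pendrin, the apical chloride and bicarbonate exchanger of bicarbonate-secreting intercalated cells. It gave 6.58 on each array, -0.35 relative to background, with 121, 127 and 123 receptor probe sets higher. Foxi1 gave 6.84, 6.84 and 6.69, -0.14 relative to background, with 68, 73 and 101 receptor probe sets higher. Neither was detected, and Foxi1 was the nearer of them to its threshold. The promoters of Atp6v1g3 and Slc26a4 are shown to set the 1 detected intercalated cell gene beside an undetected one. Atp6v1g3 (chr1:138273488-138273787, plus strand) held none of the 5 motifs searched, which were those named for Aqp2, the TATA box TATAAA and the forkhead core TGTTTA. Slc26a4 (chr12:31559935-31560234, minus strand) held TGTTCT at 213 and TATAAA at 31 bases upstream, both in capitals.
Atp6v1g3: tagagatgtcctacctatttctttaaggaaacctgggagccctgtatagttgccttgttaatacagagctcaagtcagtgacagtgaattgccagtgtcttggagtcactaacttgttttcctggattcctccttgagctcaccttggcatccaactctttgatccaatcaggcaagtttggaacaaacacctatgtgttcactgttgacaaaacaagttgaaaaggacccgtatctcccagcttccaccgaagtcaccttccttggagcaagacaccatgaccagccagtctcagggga
Slc26a4: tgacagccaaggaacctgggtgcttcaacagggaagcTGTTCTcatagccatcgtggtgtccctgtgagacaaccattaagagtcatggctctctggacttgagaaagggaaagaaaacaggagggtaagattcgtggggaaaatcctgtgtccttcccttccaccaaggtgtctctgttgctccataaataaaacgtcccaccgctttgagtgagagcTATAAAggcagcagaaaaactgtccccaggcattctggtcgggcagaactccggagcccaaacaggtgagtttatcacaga
Promoters of 9 of the 10 genes matched by symbol, without Hsd11b2. TATAAA stood in 3 of these 9, against 13.6% of all promoters, TGTTCT in 4, TGACG and AGATAA in 1 each, and TGTTTA in 1, against 13.4% of all. The absence of a match says only that those letters are not in this window.

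The principal cell genes and the intercalated cell genes were contrasted array by array through each gene's deviation from its own 3-array mean. The mean deviation of the principal cell genes was 0.00, 0.01 and -0.01 log2 on replicates 1, 2 and 3, and that of the intercalated cell genes was 0.02, 0.18 and -0.20. The principal minus intercalated difference was therefore -0.02, -0.17 and 0.19. Most of the difference on replicates 2 and 3 came from Atp6v1g3. Without Atp6v1g3, a choice made after the values were seen, the difference was -0.02, -0.01 and 0.04. With 1 group no test applies to these differences. The median deviation of the principal cell genes was 0 on each array, as was that of all genes, and 3 of the 7 principal cell genes held 1 value on all 3 arrays.

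**Figure D2:**
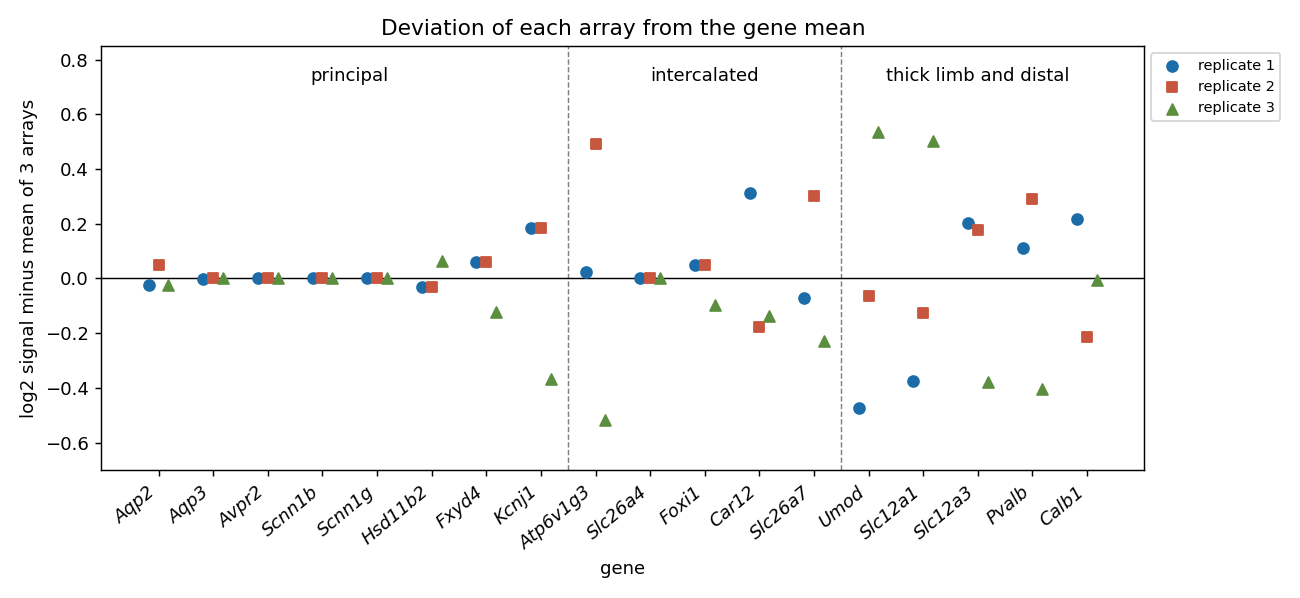
Log2 signal of each array minus the gene's mean over 3 arrays (vertical axis), for the 10 collecting duct genes and those listed principal, intercalated, thick limb and distal tubule genes whose arrays differ by more than 0.4 log2. Of the 7 principal cell genes plotted without a selection on spread, Fxyd4 deviates most, by -0.122 on replicate 3, and Atp6v1g3 spreads by 1.01.

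Tubule and leukocyte genes were read beside this spread. Slc26a7, an anion exchanger of acid-secreting intercalated cells, gave 8.75, 9.12 and 8.59, with the order replicate 2, 1, 3 of Atp6v1g3. Car12, a membrane carbonic anhydrase, gave 8.58, 8.09 and 8.13 and was highest on replicate 1. The distal tubule genes Slc12a3, the thiazide-sensitive cotransporter (8.53, 8.51 and 7.95), and Pvalb, which encodes parvalbumin (8.56, 8.73 and 8.04), were lowest on replicate 3, where Atp6v1g3 was lowest too. Calb1, the calbindin gene of the distal tubule, gave 9.61, 9.17 and 9.38 and was lowest on replicate 2, where Atp6v1g3 was highest, and Egf gave 9.64 on each array. Umod, the uromodulin gene of the thick ascending limb, gave 8.77, 9.18 and 9.78, and Slc12a1, the cotransporter gene of that segment, gave 6.46, 6.70 and 7.33. Both rose from replicate 1 to replicate 2, as Atp6v1g3 did, but were highest on replicate 3, where Atp6v1g3 was lowest. The 9 thick limb and distal genes, of which 6 were detected, summed to linear signals of 3150, 3148 and 3316. Of the proximal tubule genes 8 of 8 were detected, and they summed to 3911, 4536 and 4212. The 6 macrophage genes, of which 5 were detected, summed to 1824, 2131 and 1467, highest on replicate 2 and lowest on replicate 3. Beside these counts of detected tubule and macrophage genes stands the 58.7% of all genes. Among them Tyrobp (9.010, 9.516 and 8.715) and Lyz2 (8.983, 9.197 and 8.314) had the array order of Atp6v1g3. Ptprc, the leukocyte surface gene that lies near Atp6v1g3, gave 8.64, 8.64 and 8.35. Cd68 and the undetected Adgre1 each held 1 value on all 3 arrays. The part of tubule or leukocyte content in the spread of Atp6v1g3 was not tested. Slc12a3 was named after its values were seen.

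Wider lists of collecting duct genes were read the same way. Of 11 other principal cell genes 6 were detected (54.5%), with a median of 0.28 log2 above background. For all genes the share was 58.7% and the median 0.37. The highest above background were Sgk1, an aldosterone-induced kinase gene also active in many other cells, at 10.47, 10.47 and 10.50, and Gata3, a transcription factor gene also used by mesangial cells, at 10.11, 10.03 and 10.18. St6gal1, a sialyltransferase gene, gave 9.85 on each array, and Kcnj1, the potassium channel ROMK that the thick limb also uses, gave 8.20, 8.20 and 7.65. Kcne1, Elf5, Aqp4 and Scnn1a were undetected, at -1.15, -0.86, -0.86 and -0.77 relative to background. Of these, Aqp4 is the other basolateral water channel of principal cells and Elf5 a transcription factor of theirs.

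Of 18 other intercalated cell genes 8 were detected (44.4%), with a median of -0.09. Above background stood Slc26a7 at 1.89, the homeobox gene Hmx2 at 1.47, Car12 at 1.34 and Car15, another carbonic anhydrase gene, at 0.67. Hepacam2, the oxoglutarate receptor gene Oxgr1, the transcription factor gene Dmrt2 and the ammonia channel gene Rhbg were undetected, at -1.44, -1.06, -0.60 and -0.59 relative to background. Slc4a1, the anion exchanger of acid-secreting cells and of red cells, gave 7.14 on each array and was detected at 0.21, and Slc4a9, an exchanger of bicarbonate-secreting cells, was detected at 0.15; both were named after their values were seen. Of 8 genes shared by both classes 5 were detected, led by Car2, the cytosolic carbonic anhydrase, at 0.39 and Cdh16, the kidney cadherin, at 0.33. Over the 10 genes and these 3 lists, 25 of 47 were detected (53.2%), against 58.7% of all genes.

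The proton pump allowed a comparison of isoforms. Subunits that most cells use were detected in 15 of 15 cases, at a median of 3.14 log2 above background, and their linear signals summed to 17953, 18073 and 18450. The highest above background were Atp6v0e at 4.63, Atp6v1g1 at 4.57, Atp6v1f at 3.95 and the accessory subunit gene Atp6ap1 at 3.52. For 5 subunits both an isoform of intercalated cells and a common isoform were measured, a set put together after the values were seen. Of the intercalated isoforms 2 of 5 were detected, Atp6v1g3 at 0.99 and Atp6v0a4 at 0.36, and 3 were not, Atp6v1b1 and Atp6v1c2 at -0.12 relative to background and Atp6v0d2 at -0.56. Their common counterparts Atp6v1g1, Atp6v1b2, Atp6v1c1, Atp6v0a1 and Atp6v0d1 were detected in 5 of 5 cases, at 1.95 to 4.57. Of all genes 58.7% were detected, and the difference between the isoform sets was not tested. These summed signals of common subunits did not share the order of Atp6v1g3, since they were highest on replicate 3.

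**Figure D3:**
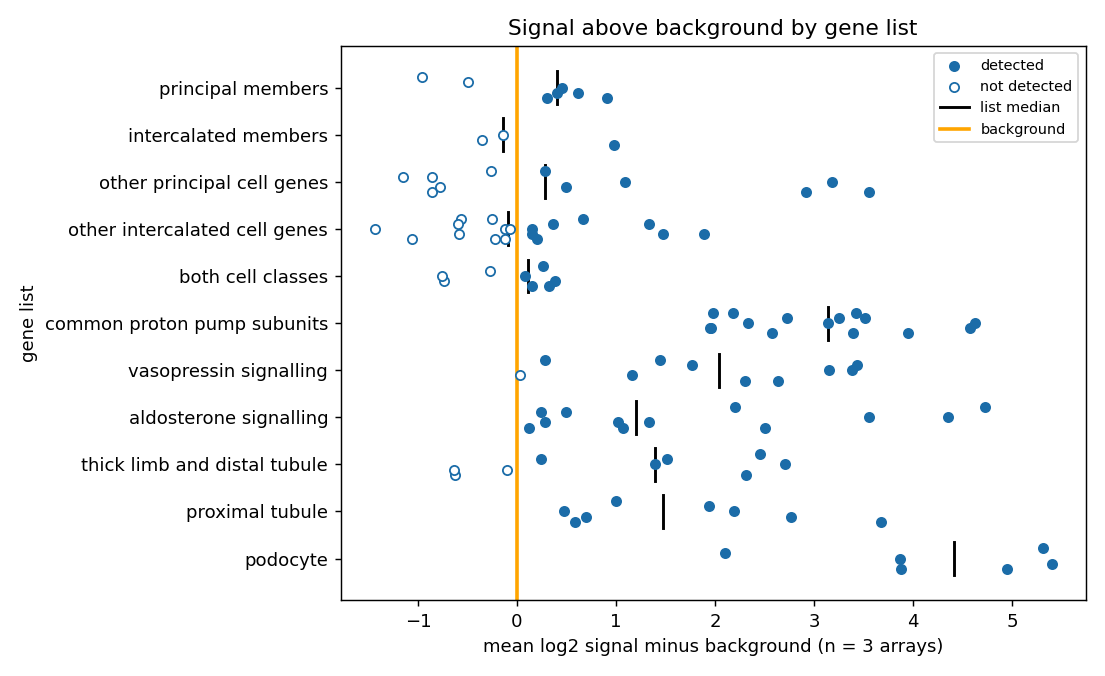
Mean log2 signal minus background (horizontal axis, n = 3 arrays) of each gene of the collecting duct lists, the hormone pathways and the other nephron lists, with filled points for detected genes, open points for undetected genes and a line at each list median. The principal cell genes run from -0.96 to 0.91 and the intercalated cell genes from -0.35 to 0.99.

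Genes of the hormone pathways that act on principal cells are used by many other cells. Of 12 listed vasopressin signalling genes 10 were analysed, without Gnas and Prkaca. Of these 10 genes 9 were detected, with a median of 2.04 log2 above background. They included Lats1, a kinase gene, at 3.44, Prkar1a, a regulatory subunit gene of protein kinase A, at 3.38, the cAMP-responsive factor gene Creb1 at 3.16 and the anchoring protein gene Akap13 at 2.64. The cyclase gene Adcy3 was undetected at 0.03 above background (adjusted p = 0.279, limma). Avpr2 stood at 0.46 beside Avpr1a, the V1a receptor gene, which gave 8.46, 8.06 and 8.59. Avpr1a was lowest on replicate 2, where Atp6v1g3 was highest. Of 12 aldosterone signalling genes 12 were detected, with a median of 1.20, led by Nedd4 at 4.73, a ubiquitin ligase gene, Wnk1 at 4.35, a kinase gene, Sgk1 at 3.55 and the glucocorticoid receptor gene Nr3c1 at 2.50. Nr3c2, the mineralocorticoid receptor gene, gave 7.21 on each array, 0.28 above background, and Nedd4l, the ligase gene known for acting on the sodium channel, stood at 0.49. Avpr1a, Nr3c2 and Nedd4l were named after their values were seen, and Sgk1, Nr3c2 and Nedd4l are also among the other principal cell genes. These counts stand beside 58.7% of all genes, and no difference between the lists was tested.

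How many of the 10 genes were called depended on the background chosen. At the 99th percentile of the receptors 2 of 10 were detected, Aqp2 and Atp6v1g3, beside 8302 of all 19938 genes. At a fixed linear signal of 150, 3 of 10 were, Aqp2, Aqp3 and Avpr2, beside 10001 of all genes. With the receptors' median as background 10 of 10 were, beside 18023 of all genes.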

How the data were processed

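The authors deposited 1 table of log2 signals for 35557 probe sets on 3 Affymetrix mouse gene arrays, hybridised with biotin-labelled RNA after 1 round of amplification (WT-Ovation Pico, NuGEN). Affymetrix Expression Console is named in the submitters' processing notes, and neither its version nor the summary method is given in the sources used here. The values were used as deposited, with medians of 7.11, 7.11 and 7.09 per array. The platform annotation gave 1 symbol for 21789 probe sets, several for 1621 and none for 12147. Of the probe sets with 1 symbol, 21698 had a gene ID in the RefSeq table, which changed 0 symbols. Genes with several probe sets took the one of highest mean, which gave 19938 genes.

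Log2 signal minus background was fitted with limma 3.58.1 (lmFit, eBayes with trend, R 4.3.3), one-sided, with Benjamini-Hochberg adjustment. With 1 group no comparison of conditions was made. Whether the pools came from different litters, or were prepared on different days, is not given in the labels. Differences between the samples may therefore be technical, and the p-values speak only for these samples. They do not measure the spread of a gene's arrays alone, since the standard error is drawn toward that of genes of similar level. Avpr2, with 1 value on all 3 arrays, had a standard error of 0.029. Atp6v1g3, with an SD of 0.505, had a standard error of 0.060. The number of arrays limits the precision.

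The genes and lists were chosen with earlier results of these data known. Genes named were the 10, up to 4 detected genes of highest and 4 undetected genes of lowest signal above background in each wider list, and listed collecting duct genes whose arrays differ by more than 1 log2; others were named after their values were seen. Some genes on the lists were not analysed here. Alternatives were other background levels, quantile normalization and leaving out each array.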

Additional observations from a re-analysis of the deposited data

How the results depend on the processing

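No paired analysis was possible because all samples form 1 group. With the 99th percentile of the receptors as background, 2 of the 10 genes and 8302 of all genes were detected. Called then were 1 principal cell gene, 3 other intercalated cell genes and 0 genes shared by both classes. Aqp3, Avpr2, Hsd11b2 and Fxyd4 then stood at -0.015, -0.18, -0.33 and -0.22 log2 from background. With the receptors' median as background, 18023 genes were detected, with 10 of the 10, 3 intercalated cell genes, 11 other principal, 18 other intercalated and 8 shared genes, and Scnn1b, Scnn1g, Slc26a4 and Foxi1 stood at 1.06, 0.60, 1.20 and 1.41 above it. With a fixed signal of 150, 3 of the 10 genes and 10001 of all genes were detected. Called then were 3 principal and 0 intercalated cell genes, 4 other intercalated genes and 1 shared gene. Hsd11b2, Fxyd4 and Atp6v1g3 were then 0.01, 0.11 and 0.69 above background (adjusted p = 0.835, 0.201 and 0.133, limma). Atp6v1g3, at 7.94, 8.41 and 7.40 on replicates 1, 2 and 3, lay above this level of 7.23 log2 on each. Its SD was 0.51, whereas Avpr2 was called at 0.155 above the level with 1 value on all 3 arrays. The cause was not tested. Over detected genes alone, the principal minus intercalated difference was -0.48 on replicate 2 and 0.50 on replicate 3, since Atp6v1g3 was then the only intercalated cell gene. Without any 1 replicate, 6 to 6 of the 10, 5 to 5 principal, 1 to 1 intercalated and 4 to 5 shared genes were detected, and 11386 to 11836 of all genes. The signal over background of these genes limits their calls, since by their means 6 of 10 lay within 1 log2 above it and 4 under it.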

Other observations

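Identical values were common and reached beyond single genes. Of 15089 probe sets with 1 value on all 3 arrays, 10600 (70.2%) shared that value with another such probe set, and up to 67 probe sets stood at 1 value. Atp6v1b1 and Atp6v1c2, the genes of 2 pump subunits, both held 6.81 on each array to every decimal, a value held by 25 probe sets that name 1 gene. The cause was not tested.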
